A study of Mus musculus with 6 samples.

Results

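The genes described here are the amino acid transporter genes of 7 solute carrier families, SLC1, SLC3, SLC6, SLC7, SLC36, SLC38 and SLC43. They were chosen by symbol, as every single-symbol row of the RNA sequencing tables named as one of these families plus a member number. Symbols with a further letter, such as Slc6a20a and Slc6a20b, were thus not taken. The rule itself uses no measured value, although the families were picked with earlier results of these data known. The rule found 59 genes among 22989 rows. Of these, 26 reached 1 FPKM (fragments per kilobase of transcript scaled to the total of mapped fragments) in at least 1 library, and 33 did not. The name of a family is not a substrate: Slc6a6 carries taurine, Slc6a8 carries creatine, Slc43a3 carries purine nucleobases, and several SLC6 members carry monoamines or GABA.

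The RNA came from C2C12 cells, an established line of mouse myoblasts (strain C3H per the labels), grown in medium with fetal bovine serum. All 3 RNA groups received an siRNA. The control library, called the fed control below, was from non-starved cells given the siRNA named siNS, the starved library from siNS cells held in Hank's balanced salt solution for 4 h (a buffered salt solution without amino acids or serum), and the siFoxk1 library from non-starved cells given siRNA against Foxk1, a forkhead transcription factor. The series set out to compare expression after starvation or Foxk1 depletion with a non-starved control, and it also holds ChIP samples, which were not used here. Each group had 1 library, so there is no spread between replicates, no test can be given, and every difference below is one between libraries.

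Foxk1 itself stood at 9.09 FPKM (deposited 95% interval 7.76 to 10.4) in the fed control, 16.1 FPKM (13.3 to 18.9) in the starved and 5.15 FPKM (4.29 to 6.02) in the siFoxk1 library, so the siFoxk1 library held 0.567 times the control level. All 8 myoblast markers examined, among them Des, which encodes the muscle filament protein desmin, and Cdh15, which encodes M-cadherin, lay above 1 FPKM in every library. The markers of endothelial cells, astrocytes, liver cells, kidney tubule and epithelium were all under 1 FPKM in every library. Of 16 markers of fibroblasts, adipocytes, macrophages and neurons, 4 passed 1 FPKM in some library. These were Pdgfra for fibroblasts, Pparg for adipocytes, Cd68 for macrophages and Map2 for neurons. Each made up most of the summed FPKM of its list in every library. Pparg was at 10.9, 10.97 and 12.9 FPKM in the fed control, starved and siFoxk1 libraries. Plin1 and Emr1, which also mark adipocytes and macrophages, were listed at 0 throughout. The fibroblast list summed to 1.498, 2.93 and 1.63 FPKM in the fed control, starved and siFoxk1 libraries (Pdgfra, at 1.41, 2.63 and 1.31 FPKM, was apart above the fed control after starvation), the adipocyte list to 11.3, 11.4 and 13.0 FPKM, the macrophage list to 2.60, 4.204 and 1.36 FPKM and the neuron list to 3.32, 4.60 and 3.66 FPKM. Within the myoblast list Myod1, the myoblast determination factor, was at 70.1, 10.7 and 95.8 FPKM in the fed control, starved and siFoxk1 libraries, and Myog, which encodes the differentiation factor myogenin, at 14.2, 6.02 and 45.4 FPKM. Both were apart below the fed control after starvation, while Myf5, another myogenic factor gene, was apart above it at 29.6 FPKM against 16.8 FPKM, and the intervals of the other 5 myoblast markers overlapped. In the siFoxk1 library Myog alone of the 8 was apart from the fed control. The part that these shifts have in the values below was not tested, and fewer cells expressing a gene cannot be told apart from less RNA per cell. The read depth is unknown. For transporter genes that passed the filter, the deposited interval width divided by 2 had a median of 18.7%, 20.2% and 19.5% of the value in the 3 libraries. Intervals were not always centred on the value: Slc38a2 in the starved library was at 254 FPKM with limits of 179.6 to 270.3 FPKM.

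Cells take up and exchange amino acids through transporters of several mechanisms. Sodium-coupled carriers such as several of SLC38 concentrate small neutral amino acids inside the cell. Heteromeric exchangers, made of a heavy chain (SLC3) and a light chain (SLC7), trade amino acids inside the cell for others outside, such as leucine or cystine. Other members, such as those of SLC36, work at the lysosome, where amino acids released by protein breakdown are exported and sensed by the kinase complex mTORC1. When amino acids run short, uncharged tRNA activates the kinase GCN2, and the transcription factor ATF4 is translated. ATF4 acts with C/EBP partners at composite DNA elements, and several transporter genes are among its known targets.

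The sequence just before the start of transcription is shown for 3 of the 6 members that were at least 2-fold higher in the starved library, taken from RefSeq promoters of build GRCm38.p6 (the FPKM tables carry no coordinates). Slc7a11 and Slc1a4 hold the letters TGATGNAA, the core of the composite element for C/EBP and ATF factors, on one strand or the other, and Slc38a2, the member at the highest level, does not hold them in this window. Capitals mark the matches. Each line runs 5′ to 3′ on the strand of its gene and covers the 150 bases before the start, at chr3:50443614-50443763, chr11:20332710-20332863 and chr15:96699729-96699878, all on the minus strand. The Slc1a4 line runs on for 4 bases past the start to hold the whole match.
Slc7a11: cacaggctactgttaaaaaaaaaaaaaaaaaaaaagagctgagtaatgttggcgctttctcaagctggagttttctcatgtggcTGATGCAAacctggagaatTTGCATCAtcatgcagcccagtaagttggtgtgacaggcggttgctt
Slc1a4: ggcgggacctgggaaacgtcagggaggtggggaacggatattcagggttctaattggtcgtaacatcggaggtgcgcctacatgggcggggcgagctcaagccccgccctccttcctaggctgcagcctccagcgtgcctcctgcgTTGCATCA
Slc38a2: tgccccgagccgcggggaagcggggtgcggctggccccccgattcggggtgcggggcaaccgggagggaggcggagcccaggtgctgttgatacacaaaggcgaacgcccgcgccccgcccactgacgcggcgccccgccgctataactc

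In Slc7a11 the letters stood on the sense strand at -66 to -59 and on the opposite strand at -47 to -40, counted from the start of transcription, with no overlap between them. In Slc1a4 they stood on the opposite strand from -4 to 4. The search covered both strands of windows of 250 bases before to 50 bases after each start. RefSeq windows were matched for 41 of the 59 members, and 3 of these genes, namely Slc7a11, Slc1a4 and Slc7a7, held a match. Of the 13 members that were higher in the starved library with intervals apart, 9 had a window and 2 held a match. Among the members at least 2-fold higher there, Slc38a7 and Slc6a9 had windows without a match and are not shown. Slc7a5 had no window. Over all 27025 genes with a window, 4.51% held one. A match is a string of letters and not a measured binding site.

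In the control library the transporter genes spanned a wide range, and a few made up most of the total. Slc38a2, which encodes the sodium-coupled neutral amino acid transporter SNAT2, was the highest at 112 FPKM (83.9 to 120.4). Slc6a6, the taurine transporter gene, followed at 107 FPKM (90.8 to 123), and the intervals of these genes overlapped. Slc7a5, the gene of the leucine exchanger light chain LAT1, was at 67.4 FPKM (55.5 to 79.3) and Slc3a2, the gene of its heavy chain 4F2hc, at 53.3 FPKM (45.8 to 60.9), again with overlapping intervals. FPKM is scaled by transcript length, so levels may be set side by side between genes. Together these 4 genes held 61.0% of the summed FPKM of all 59 members, and the same 4 held 63.7% in the starved and 61.8% in the siFoxk1 library.

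The sum over the 59 genes was 556 FPKM in the fed control, 922 FPKM in the starved and 634 FPKM in the siFoxk1 library. Relative to the sum of all rows of each table, this was 0.0982%, 0.175% and 0.113%. The next genes in the fed control were Slc38a10 at 31.5 FPKM, Slc6a8, the creatine transporter gene, at 26.4 FPKM, Slc7a1, which encodes the cationic transporter CAT1, at 24.8 FPKM, Slc43a3 at 17.2 FPKM, Slc38a1 at 16.1 FPKM and Slc7a6 at 14.5 FPKM. These complete the 10 highest members. The remaining members that passed the filter were at 13.6 FPKM or lower in the fed control. The 33 members that did not pass reached at most 0.693 FPKM (Slc7a7), and 9 of them were listed at 0 in all 3 libraries. They include 4 of 5 acidic amino acid transporter genes of SLC1, the heavy chain gene Slc3a1, 7 of 10 light chain genes and 13 of 17 SLC6 genes.

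**Figure D1:**
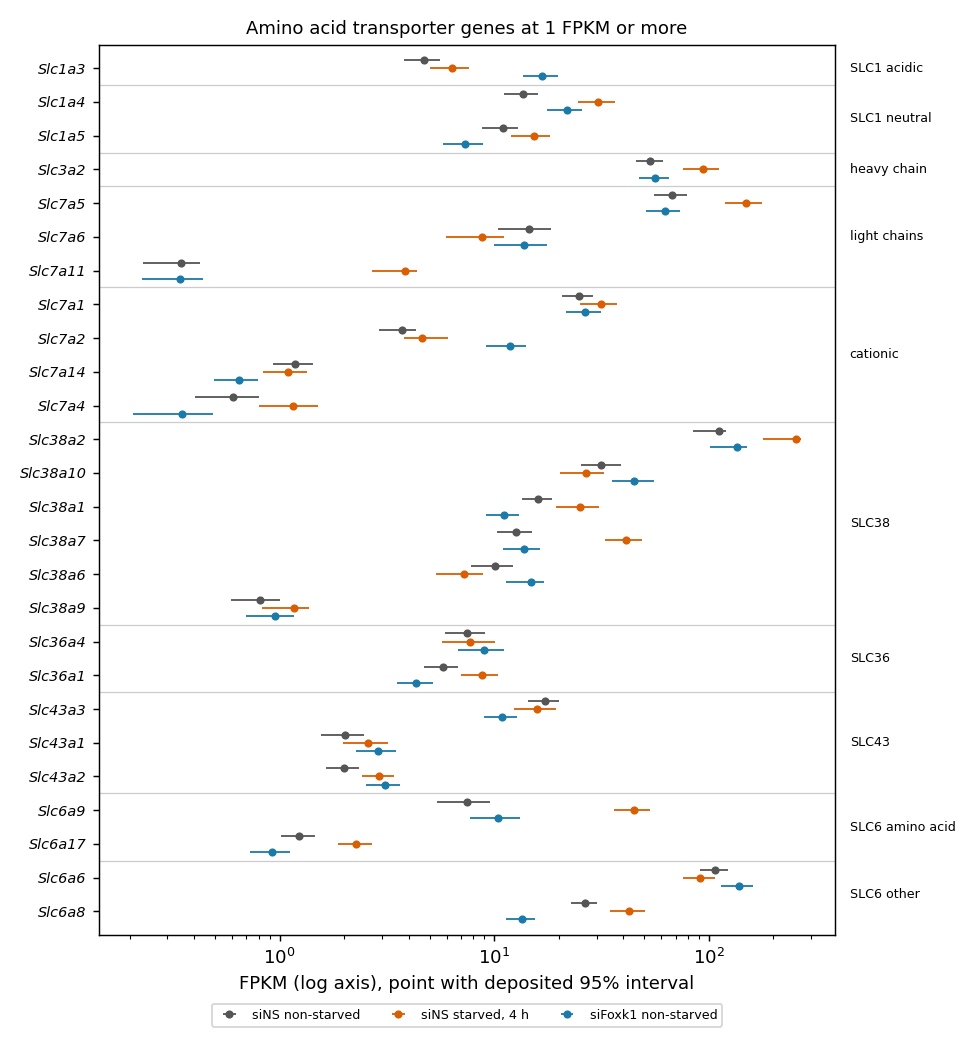
FPKM of the 26 transporter genes at 1 FPKM or more in any library, on a log axis, with the deposited 95% intervals as bars and the families at the right. Each gene has 3 points, for siNS non-starved (grey), siNS starved for 4 h (orange) and siFoxk1 non-starved (blue); Slc38a2 is the highest gene in the fed control at 112 FPKM, and Slc7a11 goes from 0.346 FPKM in the fed control to 3.85 FPKM in the starved library.

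The first comparison asked how transporter transcripts differed between the starved library and the fed control. The main pattern was one of higher levels: 13 of the 26 genes that passed the filter were higher with intervals that did not overlap, and 0 were lower in this way. Over all 11327 rows under the same filter, 12.1% were higher and 10.9% lower by the same criterion. The median log2 fold change, computed as log2((FPKM + 1)/(FPKM of the control + 1)), was 0.41 for the transporter genes, -0.01 for all rows, and -0.04 for 143 other solute carrier genes that passed the filter. Of these other carriers, 23 were higher and 18 lower with intervals apart. At a change of 2-fold or more on the same scale, 6 transporter genes were higher and 0 lower, beside 3.07% and 2.89% of all rows. Slc7a11, Slc7a4 and Slc38a9 passed the filter through the starved library alone and so had to be higher there. Among the 23 members at 1 FPKM or more in the fed control, 11 were higher apart and 0 lower apart, and 5 were at least 2-fold higher. The share of all rows under that stricter filter was not computed.

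The largest log2 fold change was that of Slc6a9, which encodes the glycine transporter GlyT1. It stood at 7.49 FPKM (5.41 to 9.55) in the fed control, 44.7 FPKM (36.3 to 53.1) in the starved and 10.4 FPKM (7.68 to 13.2) in the siFoxk1 library. Only the starved library was apart from the others. The ratio to the control was 5.97, with 3.80 and 9.81 as the extremes that the interval limits allow, and the log2 fold change of 2.43 ranked 31 from the top among the 11327 rows. The other SLC6 amino acid transporter gene that passed the filter, Slc6a17, whose protein carries neutral amino acids into synaptic vesicles, was at 1.24 FPKM (1.01 to 1.46), 2.28 FPKM (1.87 to 2.69) and 0.926 FPKM in the 3 libraries, and was also higher apart in the starved library.

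Among the heteromeric exchangers, the heavy chain gene Slc3a2 was higher apart after starvation. So were 2 of the 3 light chain genes that passed the filter, Slc7a5 and Slc7a11, beside 12.1% of all rows. Slc7a11 passed the filter through the starved library alone and so had to be higher there. Slc7a11 encodes xCT, which imports cystine in exchange for glutamate, and was at 0.346 FPKM (0.230 to 0.425), 3.85 FPKM (2.68 to 4.37) and 0.344 FPKM (0.228 to 0.441) in the fed control, starved and siFoxk1 libraries. Its starved level was 11.1 times the control (6.31 to 19.02 at the interval limits), the largest plain ratio of any member that passed the filter. Its log2 fold change of 1.85 depends on the value added before the logarithm, because the control level is low: it was 3.15 with 0.1 FPKM added and 0.73 with 5 FPKM added.

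Slc7a5 was at 67.4, 149 and 62.7 FPKM in the fed control, starved and siFoxk1 libraries. The starved interval of 119 to 177 FPKM lay above the control interval, with a log2 fold change of 1.13. Slc3a2 was at 53.3, 93.5 and 56.3 FPKM, and its starved interval of 75.8 to 111 FPKM was apart from that of the control (0.80). Slc7a6, the gene of the y+LAT2 light chain, which exchanges cationic against neutral amino acids, was the member with the lowest log2 fold change after starvation (-0.66). It was at 14.5 FPKM (10.4 to 18.3) in the fed control, 8.79 FPKM (5.98 to 11.1) in the starved and 13.8 FPKM in the siFoxk1 library, and the intervals overlapped. The sum of the 6 light chains known to pair with Slc3a2 was 82.8 FPKM in the fed control, 162 FPKM in the starved and 77.4 FPKM in the siFoxk1 library, or 1.55, 1.73 and 1.38 times the level of Slc3a2. Slc7a5 made up 81.4% of that sum in the fed control and 91.7% in the starved library, and Slc7a6 17.5% and 5.43%.

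In the SLC38 family 3 of 6 genes that passed the filter were higher apart after starvation and 0 lower apart, beside 12.1% and 10.9% of all rows. Slc38a7 encodes SNAT7, which exports glutamine and asparagine from lysosomes. It was at 12.7 FPKM (10.3 to 15.0) in the fed control, 41.1 FPKM (32.8 to 48.8) in the starved and 13.7 FPKM (10.97 to 16.3) in the siFoxk1 library. The starved level was 3.24 times the control and ranked 80 from the top among all rows by log2 fold change (1.62), while the control and siFoxk1 intervals overlapped widely.

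Slc38a2 went from 112 FPKM (83.9 to 120.4) in the fed control to 254 FPKM (179.6 to 270.3) after starvation and stood at 135 FPKM (101 to 151) in the siFoxk1 library. The starved interval was above both others, and the log2 fold change was 1.18. Its relative Slc38a1, the gene of SNAT1, was at 16.1 FPKM (13.5 to 18.7) in the fed control, 24.99 FPKM (19.4 to 30.9) in the starved and 11.2 FPKM (9.19 to 13.1) in the siFoxk1 library, with 3 intervals that did not overlap. Slc38a2 made up 87.1%, 90.8% and 92.1% of the summed FPKM of Slc38a1, Slc38a2 and Slc38a4, the genes of system A transporters, in the fed control, starved and siFoxk1 libraries. Slc38a9 encodes the lysosomal arginine sensor of mTORC1 and was near the filter, at 0.808, 1.16 and 0.952 FPKM with overlapping intervals. The intervals of Slc38a6 (10.1 and 7.26 FPKM in the fed control and starved libraries) and Slc38a10 (31.5 and 26.9 FPKM) overlapped as well.

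Of the neutral exchangers of SLC1, Slc1a4 (ASCT1, a carrier of alanine, serine and cysteine) was at 13.6 FPKM (11.2 to 16.1) in the fed control, 30.6 FPKM (24.5 to 36.6) in the starved and 21.8 FPKM (17.6 to 25.7) in the siFoxk1 library. Both other libraries were apart from the control, with log2 fold changes of 1.11 and 0.64. Slc1a5, which encodes the glutamine carrier ASCT2, was at 10.9 FPKM (8.80 to 12.9), 15.3 FPKM (12.004 to 18.1) and 7.33 FPKM (5.75 to 8.88). Its control interval overlapped both others, but the starved and siFoxk1 intervals did not overlap each other. The ratio of Slc1a4 to Slc1a5 was 1.25 in the fed control, 2.00 in the starved and 2.97 in the siFoxk1 library.

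The remaining genes that were higher apart in the starved library were at lower levels or differed by less. Slc36a1, the gene of the proton-coupled lysosomal transporter PAT1, was at 5.74 FPKM (4.71 to 6.75) in the fed control and 8.74 FPKM (6.99 to 10.5) after starvation. Slc43a2, the gene of LAT4, which lets large neutral amino acids cross by facilitated diffusion, was at 2.00 FPKM (1.64 to 2.35) and 2.92 FPKM (2.42 to 3.42). Slc6a8 was at 26.4 FPKM (22.7 to 30.2) and 42.4 FPKM (34.6 to 50.3). Slc7a4, a member of the cationic transporter subfamily, was at 0.603 FPKM (0.405 to 0.799) and 1.16 FPKM (0.803 to 1.51), so that its limits barely cleared each other.

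The main genes for import of arginine and lysine were not apart from the fed control after starvation. Slc7a1 was at 24.8 FPKM (20.6 to 28.8) in the fed control and 31.3 FPKM (25.2 to 37.4) after starvation, and Slc7a2 at 3.71 FPKM (2.90 to 4.30) and 4.62 FPKM (3.81 to 6.10), all with overlapping intervals. Slc7a3, the gene of the cationic transporter CAT3, did not pass the filter, with 0.0318 FPKM in the fed control, 0.229 FPKM in the starved and 0.006 FPKM in the siFoxk1 library. At these low levels its starved interval (0.104 to 0.370) lay above that of the fed control (0 to 0.0746). Slc6a6 was at 107 FPKM (90.8 to 123) in the fed control and 91.4 FPKM (76.0 to 107) after starvation, with overlapping intervals. Its share of the summed transporter FPKM was 19.2% in the fed control and 9.90% in the starved library, beside a sum that was higher in the starved library.

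**Figure D2:**
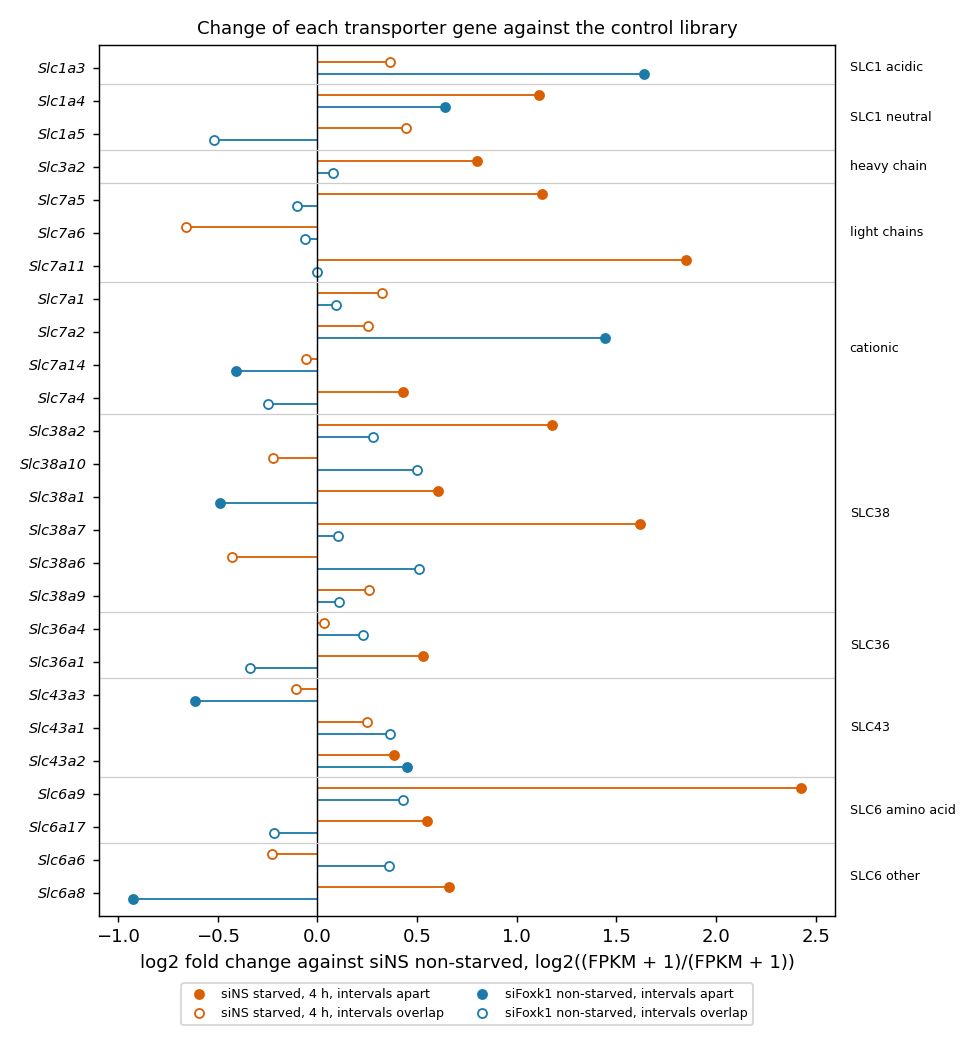
Log2 fold change of each of the 26 transporter genes against the siNS non-starved library, for the starved library (orange) and the siFoxk1 library (blue), with filled points where the deposited 95% intervals did not overlap. The 13 filled orange points all lie to the right of 0, and the 8 filled blue points are 4 on each side; both comparisons share 1 control library.

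The second comparison asked how the same genes differed after Foxk1 depletion in fed cells, and the members went in both directions. Of the 26 genes, 4 were higher apart and 4 lower apart, beside 8.92% and 7.2% of all rows, and the median log2 fold change was 0.10, where that of all rows was 0.02. At 2-fold or more 2 genes were higher and 0 lower, beside 2.54% and 1.39% of all rows. The 143 other solute carrier genes had a median of -0.05, with 10 higher apart and 14 lower apart.

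The largest differences were in carriers of acidic and of cationic amino acids. Slc1a3 encodes the glutamate and aspartate transporter GLAST, best known from astrocytes, and was at 4.71 FPKM (3.78 to 5.60) in the fed control, 6.34 FPKM (5.03 to 7.60) in the starved and 16.8 FPKM (13.5 to 19.8) in the siFoxk1 library. The siFoxk1 library alone was apart, at 3.56 times the control (2.42 to 5.24 at the interval limits), and the log2 fold change of 1.64 ranked 79 from the top among all rows. Of 3 astrocyte markers none reached 1 FPKM, and their summed level was 0.231, 0.330 and 0.132 FPKM in the fed control, starved and siFoxk1 libraries.

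Slc7a2 encodes the cationic transporter CAT2, which carries arginine, and was at 3.71 FPKM (2.90 to 4.30), 4.62 FPKM (3.81 to 6.10) and 11.8 FPKM (9.18 to 14.1). The siFoxk1 level was 3.18 times the control and apart from both others, with a log2 fold change of 1.44. Slc7a1 was at 26.5 FPKM (21.6 to 31.3) in the siFoxk1 library, and its control interval overlapped. Slc7a2 made up 13.0% of the summed FPKM of Slc7a1, Slc7a2 and Slc7a3 in the fed control, 12.8% in the starved and 30.8% in the siFoxk1 library. The remaining genes higher apart in the siFoxk1 library were Slc1a4 and Slc43a2, the latter at 3.09 FPKM (2.53 to 3.65) with a log2 fold change of 0.45. Slc1a4 and Slc43a2 were thus higher apart than the shared control in both libraries.

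Among the genes lower apart in the siFoxk1 library, Slc6a8 had the lowest log2 fold change (-0.93). It was at 13.4 FPKM (11.3 to 15.6), 0.508 times the control level, and ranked 204 from the bottom among all rows. Its level was thus lowest in the siFoxk1 and highest in the starved library, with all 3 intervals apart. The ratio of the taurine transporter gene Slc6a6 to Slc6a8 was 4.05 in the fed control, 2.15 in the starved and 10.3 in the siFoxk1 library.

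Slc43a3 was at 10.9 FPKM (8.96 to 12.8) in the siFoxk1 library against 17.2 FPKM (14.4 to 19.9) in the fed control (-0.61). Slc7a14, a cationic subfamily member, was at 0.643 FPKM (0.492 to 0.793) against 1.18 FPKM (0.932 to 1.42). Slc38a1 was lower apart with a log2 fold change of -0.49. Of these 4 genes, Slc6a8 and Slc43a3 do not have amino acids as their main substrates. Without the members whose main substrates are not amino acids, 23 passed the filter. Of these, 2 (8.70%) were lower apart and 4 (17.4%) higher apart, beside 7.2% and 8.92% of all rows.

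Of the 6 genes that were at least 2-fold higher after starvation, Slc1a4 alone was apart from the fed control in the siFoxk1 library. The log2 fold changes of the others there were 0.43 for Slc6a9, -0.002 for Slc7a11, 0.10 for Slc38a7, 0.28 for Slc38a2 and -0.10 for Slc7a5, and that of the heavy chain gene Slc3a2 was 0.08, all with overlapping intervals. For Slc7a11 the interval limits allow a ratio between 0.536 and 1.92, and for Slc7a5 between 0.641 and 1.33. Overlap of this kind does not show that the levels were equal.

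**Figure D3:**
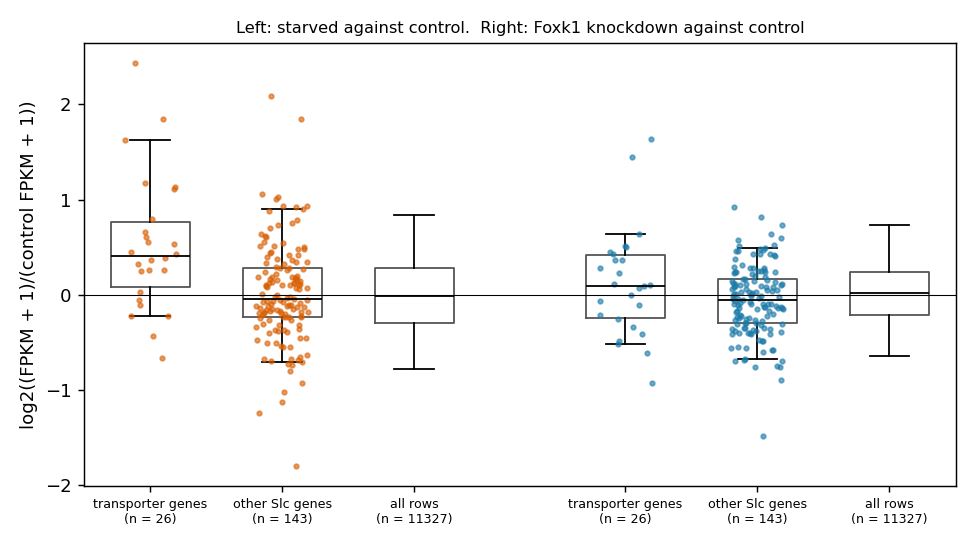
Log2 fold changes of the 26 transporter genes, 143 other solute carrier genes and all 11327 rows at 1 FPKM or more in any library, for the starved library (left, orange) and the siFoxk1 library (right, blue) against the control. Points are genes, boxes give the quartiles and median, and whiskers the 5th and 95th percentiles; the transporter median is 0.41 on the left and 0.10 on the right, while the medians of all rows are -0.01 and 0.02.

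Set directly against each other, the starved and siFoxk1 libraries differed in 18 of the 26 genes by the interval criterion. The starved library was higher in 13, where 13.3% of all rows were, and lower in 5, where 13.7% were. Among the 23 members at 1 FPKM or more in the fed control, it was higher apart in 11 and lower apart in 5. Of these 23, 5 were at least 2-fold higher in the starved library with 1 FPKM added. The share of all rows under this stricter filter was not computed. On the log2(FPKM + 1) scale, the genes at least 2-fold higher in the starved library were Slc6a9, Slc7a11, Slc6a8, Slc38a7, Slc7a5 and Slc38a1, where 4.01% of all rows reached this size. Slc1a3 (-1.28) and Slc7a2 (-1.19) were at least 2-fold lower on that scale, beside 5.25% of all rows. By the plain ratio of starved to siFoxk1 FPKM, Slc1a5 (2.08), Slc36a1 (2.01), Slc6a17 (2.46) and Slc7a4 (3.31) also passed 2-fold higher. Slc38a6 (0.489) passed 2-fold lower by this ratio. No share of all rows was computed for the plain ratio. Slc7a4 and Slc7a11 passed the filter through the starved library alone. Slc6a6, Slc38a6 and Slc38a10 were lower apart in this direct comparison, although neither library was apart from the control in any of these genes: Slc38a10 was at 26.9 FPKM (20.3 to 32.5) after starvation and at 45.0 FPKM (35.3 to 55.6) in the siFoxk1 library. Slc38a6 was at 7.26 FPKM (5.33 to 8.85) and 14.8 FPKM (11.3 to 17.1).

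Members of the same family stood in proportions that differed between some of the libraries. The plot of 5 gene pairs shows this for pairs chosen after their values were seen. Slc38a2 was 6.95 times Slc38a1 in the fed control, 10.2 times in the starved and 12.1 times in the siFoxk1 library. Slc7a5 was 4.65 times Slc7a6 in the fed control, 16.9 times in the starved and 4.53 times in the siFoxk1 library. No interval limits were computed for ratios between genes, here or above, so these differences were not set against the deposited intervals.

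**Figure D4:**
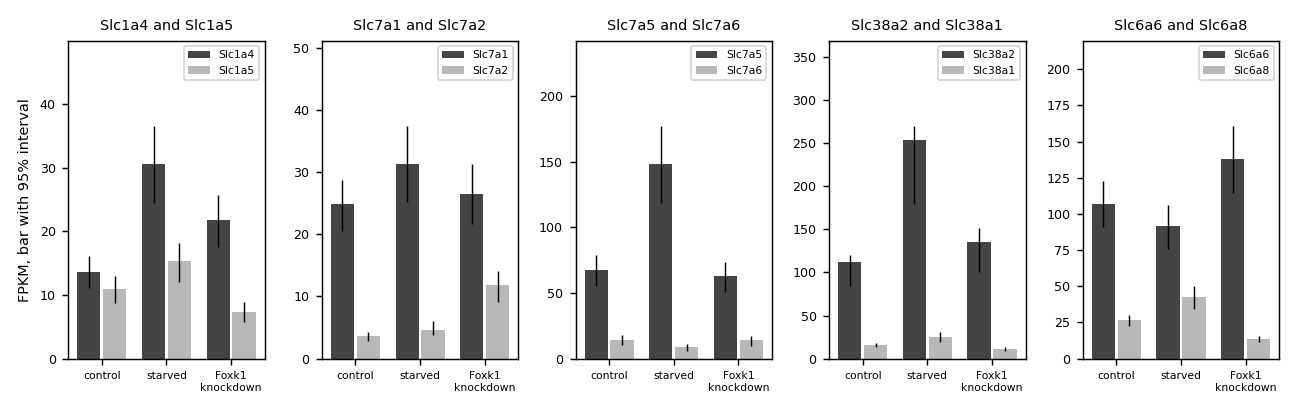
FPKM of 5 pairs of transporter genes in the fed control, starved and siFoxk1 (labelled Foxk1 knockdown) libraries, as bars from 0 with the deposited 95% intervals; each panel has its own FPKM axis. Slc1a4 and Slc1a5 are at 13.6 and 10.9 FPKM in the fed control and at 21.8 and 7.33 FPKM in the siFoxk1 library, and Slc7a2 is at 3.71, 4.62 and 11.8 FPKM from left to right.

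Further genes of amino acid supply and sensing give the setting of these values. Of 25 further genes linked to amino acid or peptide transport that the rule did not take, 13 passed the filter. The SLC6 genes Slc6a20a and Slc6a20b were among the 25 and did not pass. In the starved library 2 of these (15.4%) were higher apart and 1 (7.69%) lower apart, near the 12.1% and 10.9% of all rows. Ctns, the lysosomal cystine exporter gene, was at 3.33, 11.2 and 4.94 FPKM in the fed control, starved and siFoxk1 libraries, and was higher apart only in the starved library. Slc17a5, the gene of the lysosomal sialic acid exporter sialin, was at 2.97, 5.46 and 4.55 FPKM and was higher apart in both comparisons. Slc25a22, which encodes a mitochondrial glutamate carrier, was lower apart in the starved library, at 4.09 FPKM against 7.21 FPKM. In the siFoxk1 library 1 of the 13 was higher apart and 0 lower apart, beside 8.92% and 7.2% of all rows.

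Of 20 genes of the ATF4 branch and amino acid shortage, all passed the filter. After starvation 12 of them lay apart above the fed control and 1 below it, beside 12.1% and 10.9% of all rows. In the siFoxk1 library 2 (10%) lay above and 1 (5%) below, near the 8.92% and 7.2% of all rows. The transcript of the stress-induced pseudokinase Trib3 led the list after starvation with a log2 fold change of 4.21 and was at 4.43 FPKM in the siFoxk1 library against 3.53 FPKM in the fed control. Nupr1, a stress-induced chromatin regulator gene, and Chac1, which encodes a glutathione-degrading enzyme, were higher apart in both, with log2 fold changes of 2.33 and 2.15 in the starved and of 0.76 and 0.75 in the siFoxk1 library. Atf3, a stress-induced transcription factor gene, was apart in opposite directions: it was at 9.92, 17.1 and 3.32 FPKM in the fed control, starved and siFoxk1 libraries, and its siFoxk1 log2 fold change of -1.34 was the only one of the list to reach 2-fold there. Of 28 genes of amino acid sensing by mTORC1 that passed the filter, 9 lay apart above the fed control and 1 below it after starvation, beside 12.1% and 10.9% of all rows. In the siFoxk1 library 1 lay above it and 0 below, beside 8.92% and 7.2% of all rows. The gene above it was Sesn3, a sestrin family member, at 9.75, 27.2 and 18.6 FPKM in the fed control, starved and siFoxk1 libraries.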

How the data were processed

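RNA was selected for poly(A) tails and sequenced as 3 libraries of C2C12 myoblasts, per the labels' protocols, and groups were taken from the sample titles. Per the file headers, the deposited values are mean FPKM with the limits of a 95% interval. Build mm9, Cufflinks 2.1.1, Cuffdiff, Bowtie2 2.1.0 and TopHat2 2.0.9 are named in the submitters' processing notes, with no role stated. Open are the annotation, the counting of multiply mapped reads, how the intervals were made and whether a mean pools replicates, each not given in the sources used here. No read counts can be had from FPKM, and the ratios of low values between libraries showed no common step, so count models were not used.

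Values were used without rescaling. Rows with several symbols (364) and 1 row with its limits in the wrong order were left out, leaving 22624. A row entered at 1 FPKM or more in any of the 3 libraries, and fold changes are log2 ratios after adding 1 FPKM, which understates changes of low genes. Rows are apart where the deposited intervals do not overlap. This compares libraries and is not a test. Some deposited means lay above the upper limit of their own interval. Among the members this was so for 2 values, both of a gene under the filter. It was also so for some genes of the mTORC1 sensing list. Named are members apart in any comparison, the 10 highest in the control and 12 fixed genes, with up to 4 genes of each further list. The members and lists were chosen with earlier results of these data known. Promoter windows came from RefSeq (GRCm38.p6). The calculation was tested on simulated data. Python 3.11.15 was used with matplotlib 3.10.9, numpy 2.4.6 and pandas 2.3.3. The ChIP regions were not used.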

Additional observations from a re-analysis of the deposited data

How the results depend on the processing

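Adding 0.1 or 5 FPKM in place of 1 FPKM before the logarithm, dividing each library by its median ratio to the control, filters at 5 FPKM or none, and leaving out members with other main substrates were planned. A filter at 1 FPKM in the control library was chosen after seeing the data. With 5 FPKM added, 1 gene (Slc1a3) in place of 2 was at least 2-fold higher in the siFoxk1 library, and 0 in place of 2 were at least 2-fold lower in the starved than in the siFoxk1 library. Without members of other substrates, 2 genes in place of 4 were lower apart in the siFoxk1 library. The other counts stayed within 1.5 times their value. The number higher apart in the starved library ranged from 9 (filter of 5 FPKM) to 16 (no filter, which adds Slc1a7, Slc6a2 and Slc7a3, all under 1 FPKM), and its median log2 fold change from 0.07 (no filter) to 0.50 (0.1 FPKM added). Rescaling by 0.970 for the starved library changed no interval call of a member that passed the filter. Of single log2 fold changes, 7 of 78 moved by more than their interval allows with 0.1 FPKM added, and 5 of 78 with 5 FPKM added. No paired analysis was possible because each group had 1 library. Unknown depth limits the values of members under 1 FPKM.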
